A study of Homo sapiens with 58 samples.

Results

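SOX9-tagged and wild-type (WT) cranial neural crest cells (CNCCs) that received no degrader were compared, to ask how far the chromatin of the edited cells resembled that of the parental line before any SOX9 was removed. The members were the 6 ATAC-seq samples, of 58 in the series, in which both genotypes were differentiated side by side without dTAGV-1. They were 3 SOX9-tagged and 3 WT samples of differentiations R4, R5 and R8, paired by differentiation. The cells of R4 and R5 were collected 24 h after addition of vehicle, and those of R8 after 48 h at 0 nM dTAGV-1. A further 48 h sample of R5 without dTAGV-1 was left out, because it had no WT sample beside it. H9 human embryonic stem cells, a long established line, were the source of all samples, differentiated to mesenchymal CNCCs and kept in medium with BMP2 and the GSK3 inhibitor CHIR-99021. In SOX9-tagged cells both SOX9 alleles carried FKBP12-F36V, mNeonGreen and the V5 epitope at the carboxy terminus, inserted by Cas9 and an AAV donor. Clones S9CC13 and S9CC47 had each been grown from a single edited cell, and WT cells are described only as untagged, so that effects of the tag and of the history of a clone cannot be told apart. R4 was from S9CC13 and R8 from S9CC47, and for R5 the sample title and the column name give different clones. The labels give the relative SOX9 level as 100% in all SOX9-tagged samples and in WT cells of R4 and R5, and as 115% in WT cells of R8. WT cells of R4 and R5 with 500 nM dTAGV-1 are labelled 0.95%, as SOX9-tagged cells at that dose are. The labels of R4 and R5 thus follow the dose, and do not tell whether SOX9 differed between the genotypes there.

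SOX9 is a transcription factor of the SOX family, whose DNA-binding domain recognises short AT-rich motifs and bends the DNA. It acts in the specification and migration of the neural crest and is a master regulator of cartilage. FKBP12-F36V is a mutant prolyl isomerase domain that binds dTAGV-1, which in turn recruits an E3 ubiquitin ligase, so that the tagged protein is degraded. ATAC-seq uses the Tn5 transposase to insert adapters into open chromatin, and the count over a regulatory element (RE) is a measure of its accessibility. In bulk samples, fewer cells with an open RE and less accessibility in each cell cannot be told apart.

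Counts were available for 151457 REs on hg38, with 50.5 to 71.4 M counts in the 6 samples and a median of 133 to 182 counts per RE. Values are given as normalised read counts (CPM, on the library total times its TMM factor), differences are SOX9-tagged minus WT on the log2 scale, and an RE was called where the adjusted p of the edgeR quasi-likelihood test, with differentiation as covariate, was under 0.05. Nothing in the sources tells whether a differentiation was started from a separate culture of stem cells. With differentiation as covariate, p-values measure the spread of the genotype difference over these 3 pairs, with dispersion estimated across REs, and do not reach beyond them. Promoters of all 10 cranial neural crest marker genes were in the table, at 7.55 to 78.7 CPM in SOX9-tagged and 8.34 to 84.0 CPM in WT cells, beside a median of 7.52 CPM over 29534 promoter REs of protein-coding genes. Among them, ALX1, a homeobox gene of the facial mesenchyme, was at 78.7 ± 7.1 CPM (SD, n = 3) in SOX9-tagged and 84.0 CPM in WT cells. None of the 10 promoters was called. The promoters of the pluripotency genes NANOG and ZFP42 were not among the REs, but those of LIN28A, at 28.7 and 29.8 CPM, and of PMEL, at 97.0 and 100.1 CPM, were open in SOX9-tagged and WT cells, so that an open promoter alone does not mark the cell type.

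Between untreated SOX9-tagged and WT cells 1439 REs were called, 0.95% of those tested. Of these, 650 (0.429%) had lower and 789 (0.521%) had higher counts in SOX9-tagged cells. The differences were moderate, with a median log2 difference of -0.63 over the lower and 0.72 over the higher REs, and 61 of the lower and 111 of the higher REs differed by more than 1. The sign was the same in all 3 differentiations for 647 of the 650 and 782 of the 789, and for 34.9% of all REs. The calls were made on these same pairs, so that this agreement largely follows from the choice. The 3 SOX9-tagged and 3 WT values did not overlap for 252 of the lower and 195 of the higher REs, and for 5.47% of all REs. For the others the ranges overlapped, and the difference stood within the pairs. Without the differentiation as covariate 0 REs were called, although 1872 had an unadjusted p-value under 0.05, and DESeq2 called 662, of which 287 were higher and 375 lower. Single pairs carried weight, as 3891 REs were called without R4, 896 without R5 and 1206 without R8, of which 452 were higher. With library size as the only scaling, which moved the median of all REs from 0.011 to 0.045, 1229 were higher and 643 lower.

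Over whole chromosomes the differences were small. The median log2 difference over the REs of a chromosome lay between -0.072 and 0.055 in every differentiation, and its mean over R4, R5 and R8 was lowest on chromosome 11, at -0.011 ± 0.0022 (SD, n = 3), and highest on chromosome 18, at 0.029 ± 0.021. In the GC-rich chromosome 19 the medians were 0.04 in R4, -0.07 in R5 and 0.0035 in R8. Of 582 windows of 5 Mb with at least 20 REs, none was beyond 0.3 in the same direction in all 3 differentiations. The window highest in all 3, chrX:25000001-30000000, had medians of 0.12, 0.17 and 0.09 over 64 REs, and the window lowest in all 3, chr14:105000001-110000000, had -0.05, -0.20 and -0.16 over 66 REs.

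**Figure D1:**
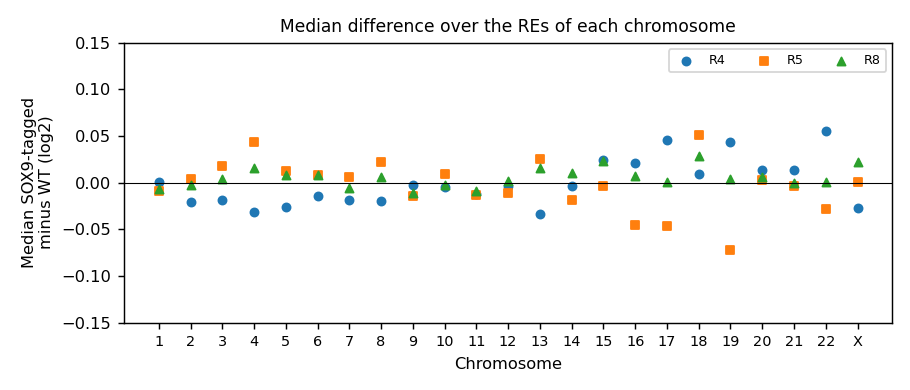
Median log2 difference in CPM (SOX9-tagged minus WT, y axis) over the REs of each chromosome (x axis), 1 point per differentiation. All points lie between -0.072 and 0.055, and no chromosome is beyond this range in any differentiation.

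The central 150 bases of 8 called REs are shown because the results below turn on them: 4 REs with less accessibility in SOX9-tagged cells that also fell on SOX9 depletion, the RE at the SOX9-AS1 promoter that was lower but did not pass the test on depletion, and 3 that were higher. They are from the plus strand of hg38, and capitals mark the 6-base SOX cores AACAAT or ACAAAG on either strand.
MED4, intergenic, chr13:48111035-48111184: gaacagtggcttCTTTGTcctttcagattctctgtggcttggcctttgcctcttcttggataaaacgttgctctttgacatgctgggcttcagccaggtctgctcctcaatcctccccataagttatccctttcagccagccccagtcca
MEGF10, intron, chr5:127428903-127429052: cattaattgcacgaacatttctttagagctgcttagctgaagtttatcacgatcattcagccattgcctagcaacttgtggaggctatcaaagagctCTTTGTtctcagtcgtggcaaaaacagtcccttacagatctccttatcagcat
TFAP2B, intergenic, chr6:51349983-51350132: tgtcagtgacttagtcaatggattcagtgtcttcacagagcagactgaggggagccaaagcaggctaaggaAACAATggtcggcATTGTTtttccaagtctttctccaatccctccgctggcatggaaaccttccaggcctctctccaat
GRB10, intron, chr7:50648658-50648807: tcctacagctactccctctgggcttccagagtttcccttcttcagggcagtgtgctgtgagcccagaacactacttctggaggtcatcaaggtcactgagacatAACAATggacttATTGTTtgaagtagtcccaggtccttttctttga
SOX9-AS1, promoter, chr17:72173629-72173778: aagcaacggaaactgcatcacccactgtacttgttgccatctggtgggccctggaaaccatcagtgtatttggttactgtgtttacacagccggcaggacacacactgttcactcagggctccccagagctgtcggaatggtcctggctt
EPHB1, intron, chr3:134847108-134847257: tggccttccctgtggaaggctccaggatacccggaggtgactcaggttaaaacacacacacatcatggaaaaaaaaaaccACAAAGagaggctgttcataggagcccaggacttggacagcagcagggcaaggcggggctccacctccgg
COL3A1, intron, chr2:188975799-188975948: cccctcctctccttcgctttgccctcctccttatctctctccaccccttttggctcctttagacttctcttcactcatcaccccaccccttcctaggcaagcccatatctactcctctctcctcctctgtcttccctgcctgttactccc
MTRES1, intron of the gene outside any exon, chr6:107044502-107044651: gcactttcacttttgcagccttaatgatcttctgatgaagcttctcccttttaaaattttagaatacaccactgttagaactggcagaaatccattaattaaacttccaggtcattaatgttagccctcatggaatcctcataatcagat
The stretches of TFAP2B and GRB10 each hold 2 cores that face each other. Over their whole length the MED4 RE held 3 cores, the SOX9-AS1 RE 2 and the MTRES1 RE 6, whereas the COL3A1 RE held none. The REs of ZNF469 and ARHGEF10L, not shown, were also lower on depletion and held none. A core was held by 14 of the 17 named lower and 7 of the 16 named higher REs.

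Of the 6 named REs with the lowest differences, 5 lay outside promoters, where most REs lie. Promoters were overlapped by 23.3% of all REs and 18% of the lower REs. The lowest p-value of all belonged to an intergenic RE at chr13:48110860-48111360, near MED4, a Mediator subunit. It had 3.18, 5.54 and 2.04 CPM in the SOX9-tagged cells of R4, R5 and R8 and 11.4, 16.3 and 5.1 CPM in WT cells. Every differentiation showed the lower value in SOX9-tagged cells, with R5 high in both genotypes so that the groups overlapped, and the log2 difference was -1.58 ± 0.13 (SE), adjusted p = 9.43e-06. The intronic RE of MEGF10, a scavenger receptor of the engulfment pathway, had 0.883, 2.89 and 2.12 CPM in the SOX9-tagged cells of R4, R5 and R8 and 5.83, 7.41 and 3.75 CPM in WT cells, and these did not overlap. Its log2 difference was -1.56 ± 0.22 (SE), adjusted p = 0.00128, a call that DESeq2 did not make. Near ZNF469, a zinc finger gene whose mutations cause brittle cornea, the RE at chr16:88357928-88358428 had 2.01, 3.69 and 1.65 CPM in the SOX9-tagged cells of R4, R5 and R8 and 6.42, 8.76 and 5.0 CPM in WT cells. Here too the SOX9-tagged samples were all below the WT samples, with a log2 difference of -1.49 ± 0.14 (SE), adjusted p = 2.08e-05. In an intron of CFAP20DC-DT, a long non-coding RNA gene, the RE had 0.996, 2.28 and 0.832 CPM in the SOX9-tagged cells of R4, R5 and R8 and 5.7, 7.06 and 1.48 CPM in WT cells. In R8 both genotypes were low, and the log2 difference over the 3 pairs was -1.72 ± 0.21 (SE), adjusted p = 0.000409, and this RE too was not called by DESeq2. An RE in an intron of the non-coding gene ENSG00000259035 had 1.28, 1.45 and 0.675 CPM in the SOX9-tagged cells of R4, R5 and R8 and 4.19, 4.14 and 1.96 CPM in WT cells, and an RE in an intron of ARHGEF10L, a guanine nucleotide exchange factor, had 7.82, 11 and 4.9 CPM in the SOX9-tagged cells of R4, R5 and R8 and 18, 24.7 and 10.4 CPM in WT cells. Their log2 differences were -1.59 ± 0.17 (SE), adjusted p = 7.07e-05, and -1.16 ± 0.10 (SE), adjusted p = 1.71e-05, respectively. An intronic RE of SLCO3A1, an organic anion transporter, differed by -1.32 ± 0.12 (SE), adjusted p = 1.71e-05.

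Promoters were among the lower REs as well. The RE at the promoter of DLC1, a GTPase-activating protein, had 2.62, 4.83 and 1.74 CPM in the SOX9-tagged cells of R4, R5 and R8 and 9.34, 13.7 and 2.94 CPM in WT cells, and R8 was again low in both genotypes. The promoter RE of VILL, a villin-like actin-binding protein, had 6.99, 7.01 and 3.89 CPM in the SOX9-tagged cells of R4, R5 and R8 and 19.8, 14 and 8.6 CPM in WT cells, and that of SH3BP4, an endocytic adaptor, had 2.47, 2.42 and 3.3 CPM in the SOX9-tagged cells of R4, R5 and R8 and 8.95, 6.8 and 5.6 CPM in WT cells. At both of these the genotypes did not overlap. Log2 differences were -1.41 ± 0.16 (SE), adjusted p = 0.000148 for DLC1, -1.22 ± 0.12 (SE), adjusted p = 2.99e-05 for VILL and -1.36 ± 0.16 (SE), adjusted p = 0.000318 for SH3BP4. The RE upstream of PLCH1, a phospholipase C, differed by -1.31 ± 0.16 (SE), adjusted p = 0.000433.

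The lowest log2 difference of the named REs was at the promoter of CCDC144NL, a long non-coding RNA gene in GENCODE, and its antisense RNA at chr17:20868271-20868771. It had 0.819, 0.372 and 0.722 CPM in the SOX9-tagged cells of R4, R5 and R8 and 3.2, 2.04 and 1.53 CPM in WT cells, with a log2 difference of -1.80 ± 0.23 (SE), adjusted p = 0.000578. Near-identical paralogues of this gene lie on the same chromosome arm, and its count is uncertain for that reason. The groups did not overlap. The 7 SOX9-tagged samples at 48 h and 0 nM include those of R5 and R8. They had 0.386, 0.904 and 1.18 CPM as lowest, median and highest value, on the scale of all 58 samples. The WT sample of differentiation RSh had 2.27 CPM. This RE did not pass the test on depletion of SOX9, with a log2 change of 0.14 (adjusted p = 0.807).

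SOX9-tagged cells of 4 differentiations that had no sample in the comparison (R6, R10, R13 and R14) showed which REs depend on SOX9. With 500 nM dTAGV-1 for 48 h against 0 nM, in 5 replicates, 25360 REs (16.7%) were called, 15398 (10.2%) lower and 9962 (6.58%) higher. The covariate was differentiation, which does not separate the clones of R6. With a block of clone and differentiation 37727 were called, 20967 lower and 16760 higher. The classes used here are those of the former, so that which REs count as not called on depletion depends on the block. Of the 650 REs that were lower in untreated SOX9-tagged cells, 516 (79.4%) were lower on depletion and 5 (0.769%) higher. The median change on depletion over the 650 was -1.19, beside 0.02 over all REs. These libraries share neither samples nor differentiations with the genotype comparison, but they share the clones. At the MED4 RE the change on depletion was -4.17 (adjusted p = 8.83e-11), at MEGF10 -3.45 (adjusted p = 1.67e-07) and at VILL -2.89 (adjusted p = 1.33e-09). Of the 17 named REs with a negative genotype difference, 15 were also lower on depletion, and the exceptions were at the promoters of CCDC144NL and SOX9-AS1.

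**Figure D2:**
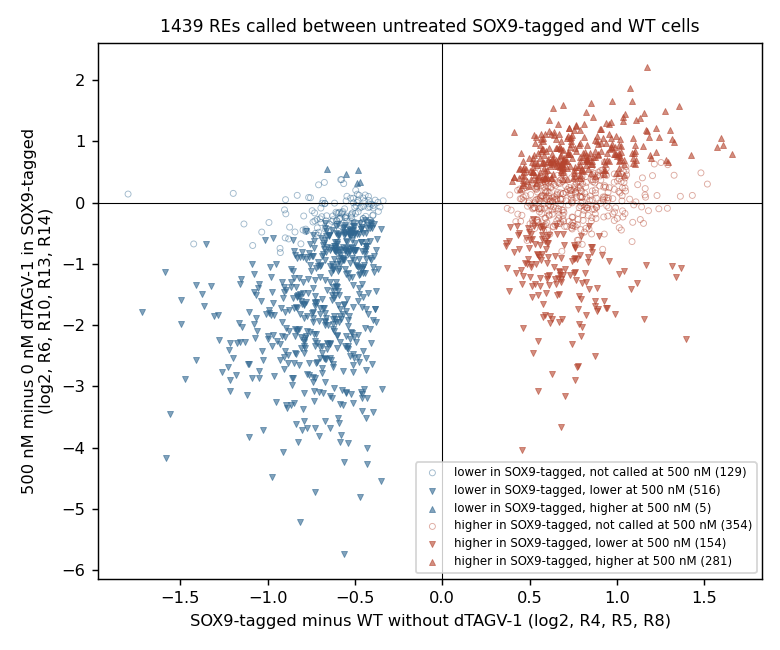
Each point is 1 of the 1439 called REs, with the log2 difference between untreated SOX9-tagged and WT cells on the x axis and the log2 change with 500 nM dTAGV-1 in other differentiations on the y axis. Triangles are REs called on depletion, and the 516 downward triangles on the left outnumber the 5 upward ones, whereas on the right 281 point up and 154 down.

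Of the 15398 REs that were lower on depletion, 516 (3.35%) were lower and 154 (1.00%) higher in untreated SOX9-tagged cells, beside 0.429% lower and 0.521% higher over all REs, and the remaining REs were not called. The share called lower was 6.14% of the 5892 REs that fell by more than 1 and 11.9% (188) of the 1574 that fell by more than 2, of which 1.51% and 1.02% were called higher. Most REs of these classes were thus not called, and the medians of the classes differed in sign between differentiations. For all 15398 the median difference between the genotypes was -0.01 in R4, -0.16 in R5 and 0.05 in R8, that is -0.04 ± 0.11 (SD, n = 3). Over the 1574 REs the medians were -0.20 in R4, -0.41 in R5 and 0.22 in R8, so that R8 had the opposite sign to R4 and R5. The median over the 9962 REs that were higher on depletion was above 0 in each differentiation, with 0.03 in R4, 0.32 in R5 and 0.17 in R8, or 0.17 ± 0.15 (SD, n = 3). Of these, 281 (2.82%) were called higher and 5 (0.0502%) lower. In R8 the WT sample carries the label of 115% SOX9, whereas the labels of R4 and R5 follow the dose and give no WT level to set beside it. The samples of R8 were also taken at 48 h, so that level, time and clone cannot be told apart there. For an RE with at least 50 counts on average, the median standard error of the log2 difference was 0.15.

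**Figure D3:**
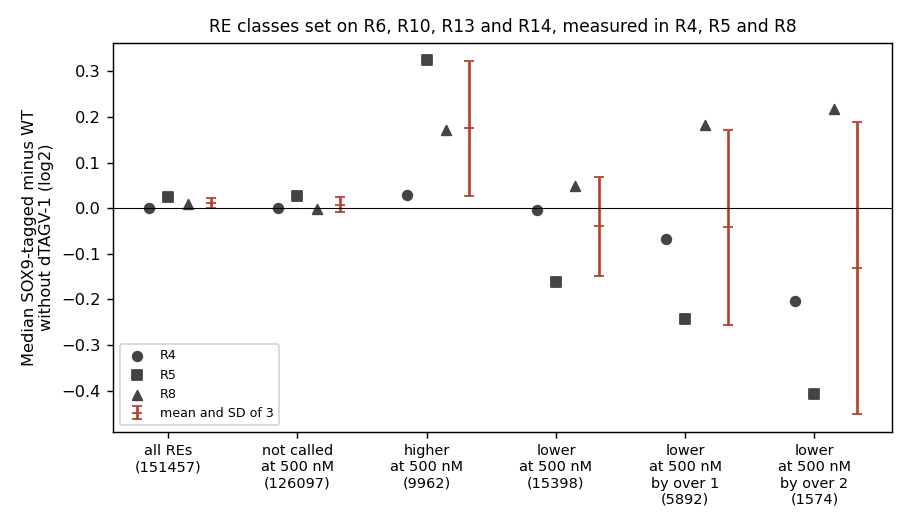
Median log2 difference between untreated SOX9-tagged and WT cells (y axis) for classes of REs set by their change on depletion in R6, R10, R13 and R14, with the number of REs under each class (x axis). Points are the 3 differentiations and bars the mean ± SD. Among REs that were lower on depletion R5 lies below and R8 above 0, and for REs that were higher on depletion all 3 points lie above 0.

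The size of the genotype difference can be set beside the titration. The 5 replicates of R6, R10, R13 and R14 were also treated with 0.5, 1.6, 5 and 16 nM dTAGV-1, labelled as 77.9, 51.7, 25.8 and 8.14% of the untreated SOX9 level. Over the 516 REs that were lower in both comparisons, the median change was -0.04 with 0.5 nM, -0.14 with 1.6 nM, -0.66 with 5 nM and -1.13 with 16 nM. The median genotype difference over the same REs was -0.65, between the values at 1.6 and 5 nM. Because the 516 were chosen by that difference, its size is a description. Over all 15398 REs that were lower on depletion the median at 5 nM was -0.36, and their median genotype difference of -0.04 was no larger than the change at 0.5 nM.

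**Figure D4:**
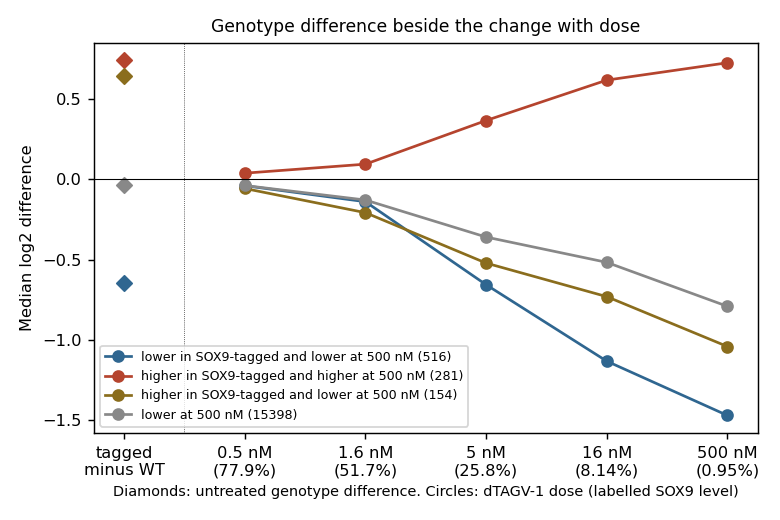
Median log2 change against 0 nM with rising dTAGV-1 dose in R6, R10, R13 and R14 (circles, with the labelled SOX9 level), beside the median log2 difference between untreated SOX9-tagged and WT cells in R4, R5 and R8 (diamonds), for 4 groups of REs. The diamond of the 516 REs lies near their value at 5 nM, and that of all 15398 REs lies near 0.

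Among the REs that were higher in SOX9-tagged cells, no single direction on depletion prevailed to the same degree. Of the 789, 281 (35.6%) were higher, 154 (19.5%) lower and 354 (44.9%) not called with 500 nM dTAGV-1 in R6, R10, R13 and R14, beside 6.58% higher and 10.2% lower over all REs. A pair of neighbouring intergenic REs near HAPSTR1, a stress response regulator, had the highest log2 differences of the named REs. The one at chr16:9192663-9193163 had 1.2, 0.695 and 2.13 CPM in the SOX9-tagged cells of R4, R5 and R8 and 0.667, 0.178 and 0.487 CPM in WT cells, and the groups did not overlap. Its log2 difference was 1.6 ± 0.28 (SE), adjusted p = 0.00685, and that of its neighbour was 1.57 ± 0.22 (SE), adjusted p = 0.00136. The former rested on a mean of 56 counts and was not called without R8. Both were higher on depletion, by 1.06 and 0.91 (adjusted p = 0.000434 and 0.00303). In an intron of COL3A1, a fibrillar collagen of soft connective tissue, the RE had 2.46, 7.05 and 3.42 CPM in the SOX9-tagged cells of R4, R5 and R8 and 1.45, 1.63 and 1.22 CPM in WT cells. All 3 SOX9-tagged samples were above all WT samples, most of all in R5, and the log2 difference was 1.48 ± 0.20 (SE), adjusted p = 0.000753. On depletion its change of 0.48 (adjusted p = 0.0546) did not pass the threshold. An intronic RE of EPHB1, an ephrin receptor that acts in the guidance of migrating cells, had 24.7, 27.6 and 14.6 CPM in the SOX9-tagged cells of R4, R5 and R8 and 16.6, 13.8 and 6.85 CPM in WT cells. The log2 difference was 0.88 ± 0.11 (SE), adjusted p = 0.000318, and the change on depletion was -0.08 (adjusted p = 0.749). An intergenic RE near SYN3, a synapsin, had 5.03, 11 and 1.9 CPM in the SOX9-tagged cells of R4, R5 and R8 and 2.12, 4.78 and 0.932 CPM in WT cells. Its log2 difference was 1.17 ± 0.14 (SE), adjusted p = 0.000282, and it was higher on depletion by 1.16 (adjusted p = 4.76e-07).

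Low counts stood behind the remaining named REs with the largest positive differences as well. An intronic RE of APBA1, an adaptor protein, had 1.51, 0.469 and 1.63 CPM in the SOX9-tagged cells of R4, R5 and R8 and 0.753, 0.0793 and 0.487 CPM in WT cells, and its mean was 51.5 counts. Intronic and intergenic REs of PRMT8, an arginine methyltransferase, and SLC22A8, an organic anion transporter, were called on means of 56.3 and 54.8 counts, with log2 differences of 1.42 ± 0.27 (SE), adjusted p = 0.011, and 1.43 ± 0.25 (SE), adjusted p = 0.00629. Among promoters of protein-coding genes, the RE of the histone genes H3C11 and H4C13 had 11.9, 5.37 and 7.71 CPM in the SOX9-tagged cells of R4, R5 and R8 and 5.0, 2.46 and 5.0 CPM in WT cells, which did not overlap. Reads of histone genes can be shared with near-identical copies. The RE at the promoter of PERCC1 had 9.7, 5.14 and 10.5 CPM in the SOX9-tagged cells of R4, R5 and R8 and 6.86, 1.82 and 4.61 CPM in WT cells, with a log2 difference of 1.01 ± 0.15 (SE), adjusted p = 0.00212. Those of VPS13C, a lipid transfer protein, and NELL1, a secreted protein of bone formation, had log2 differences of 1.08 ± 0.22 (SE), adjusted p = 0.0184, and 0.98 ± 0.17 (SE), adjusted p = 0.00589. The VPS13C RE was not called by DESeq2, without R5 or without R8, and the PRMT8 RE was not called without R5.

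A group of 154 REs was higher in untreated SOX9-tagged than in WT cells and yet lower on depletion of SOX9. Their median difference between the genotypes was 0.53 in R4, 0.48 in R5 and 0.86 in R8, and the median change with 500 nM was -1.13. An RE of MTRES1, a mitochondrial factor of transcription rescue, was the only one that the rule for named REs took. It had 6.55, 1.83 and 3.86 CPM in the SOX9-tagged cells of R4, R5 and R8 and 2.52, 0.852 and 1.4 CPM in WT cells, so that each pair was higher in SOX9-tagged cells although the ranges overlapped. The log2 difference was 1.34 ± 0.16 (SE), adjusted p = 0.000271, and on depletion the change was -1.22 (adjusted p = 0.00118). At an intronic RE of BMPR1A, a BMP type I receptor, SOX9-tagged cells were higher by 0.67 ± 0.15 (SE), adjusted p = 0.0368, and the change on depletion was -1.94 (adjusted p = 5.92e-08).

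The genotypes were compared once more in other libraries of the same 3 differentiations, in which all cells had received 500 nM dTAGV-1 which depletes SOX9 in SOX9-tagged cells. There 26430 REs (17.5%) were called between SOX9-tagged and WT cells, 14713 (9.71%) lower and 11717 (7.74%) higher. Of the 650 REs that were lower without dTAGV-1, in SOX9-tagged cells 546 (84.0%) were lower with it and 0 higher, with 9 of the 650 above 0 at all. As 516 of the 650 were lower on depletion, loss of SOX9 and the untreated difference cannot be told apart there. Among the 129 lower REs not called on depletion in R6, R10, R13 and R14, 61 were lower with 500 nM and 68 were not called. Of the 789 that were higher without dTAGV-1, 442 (56.0%) were higher with it and 100 (12.7%) were lower. Among the 354 higher REs that were not called on depletion in R6, R10, R13 and R14, 171 were higher in SOX9-tagged cells also with 500 nM, and 7 were lower. At the COL3A1 RE the difference with 500 nM was 1.29 (adjusted p = 0.00879), at the CCDC144NL promoter -1.57 (adjusted p = 0.00024) and at the promoter of H3C11 and H4C13 0.96 (adjusted p = 0.00401), all in the direction seen without dTAGV-1. At the EPHB1 RE it was 0.30 (adjusted p = 0.29). The difference between the genotype effects with and without dTAGV-1 was tested as an interaction, which was past the threshold for 21660 REs (14.3%) and for 19 of the 33 named REs. The interaction uses the libraries that chose the named REs.

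At SOX9 itself none of the 4 REs within 10 kb of the gene was called. No RE covers the stop codon at chr17:72124385-72124387, where the tag was inserted, and the nearest RE begins 2146 bases downstream. The RE over the promoter, chr17:72119993-72121187, had 35.0, 32.2 and 38.9 CPM in SOX9-tagged cells and 32.9, 31.4 and 40.3 CPM in WT cells of R4, R5 and R8, with a log2 difference of 0.02 ± 0.08 (SE), adjusted p = 0.931. The next RE upstream, chr17:72117987-72118929, had 13.5, 14.8 and 16 CPM in SOX9-tagged and 10.1, 12.7 and 13.1 CPM in WT cells. It was higher in each pair, with a log2 difference of 0.31 ± 0.10 (SE) that did not pass the threshold (adjusted p = 0.157). The RE beyond the stop codon, chr17:72126533-72127514, had 8.01, 10.2 and 10.9 CPM in SOX9-tagged and 10.5, 12.7 and 13.9 CPM in WT cells. It was lower in each pair, but the log2 difference of -0.35 ± 0.10 (SE) did not pass it either (adjusted p = 0.117). The RE farthest upstream, chr17:72111276-72111776, had a log2 difference of -0.13 ± 0.09 (SE), adjusted p = 0.546. 

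Further out, 3 of 116 REs in the SOX9 regulatory domain, from 1.5 Mb upstream to 0.5 Mb downstream of the gene's start, were called (1.72% lower and 0.862% higher, beside 0.429% and 0.521% over all REs), and all of them lie downstream. DESeq2 called 1 of the 116. The RE at the promoter of SOX9-AS1, 49.3 kb beyond the stop codon, had 2.81, 3.54 and 3.47 CPM in the SOX9-tagged cells of R4, R5 and R8 and 5.29, 6.82 and 7.5 CPM in WT cells. The groups did not overlap, and the log2 difference was -0.99 ± 0.13 (SE), adjusted p = 0.000549. The 7 SOX9-tagged samples at 48 h and 0 nM had 1.64, 2.42 and 3.36 CPM as lowest, median and highest value, all below the 5.12 CPM of the WT sample of RSh. On depletion the change was -0.33 (adjusted p = 0.232), and with 500 nM the difference between the genotypes was -1.09 (adjusted p = 0.000219). A second RE, in an intron of SOX9-AS1 63.4 kb beyond the stop codon, differed by -0.49 ± 0.11 (SE), adjusted p = 0.0449. The last of them, at a promoter of the non-coding genes LINC00511 and LINC02003 225 kb beyond the stop codon, differed by 1.1 ± 0.21 (SE), adjusted p = 0.0117. Neither passed the threshold on depletion, with changes of 0.14 and -0.04 (adjusted p = 0.536 and 0.952). These last REs are named because they complete the domain, after their values were seen.

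REs of gene lists with a role in these cells were counted next, to be read against the 0.429% lower and 0.521% higher over all REs. Each RE was assigned to the genes whose promoter or body it overlaps, or otherwise to the nearest protein-coding gene. Of 274 REs of cranial neural crest genes, 1 (0.365%) was lower and none higher. It lies 528 kb from TFAP2B, which encodes an AP-2 factor of the neural crest, and had 3.48, 2.72 and 2.46 CPM in the SOX9-tagged cells of R4, R5 and R8 and 9.15, 6.3 and 3.28 CPM in WT cells. Its log2 difference was -1.03 ± 0.16 (SE), adjusted p = 0.00293, and it was lower on depletion, with a change of -2.43 (adjusted p = 6.21e-07). In cartilage genes 3 of 258 REs (1.16%) were lower and none higher, and all 3 were also lower on depletion. They were the promoter RE of CNMD, which encodes chondromodulin, and 2 REs at the promoter of COL9A3, a chain of the cartilage collagen IX. The RE at the start of COL9A3 had 1.27, 1.58 and 1.38 CPM in the SOX9-tagged cells of R4, R5 and R8 and 2.17, 3.21 and 2.15 CPM in WT cells, which did not overlap, and its log2 difference was -0.81 ± 0.17 (SE), adjusted p = 0.0227. It was not called without R5. DESeq2 called none of the 258, of which 38 had an unadjusted p-value under 0.05 in edgeR. 

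The promoters of the glial and melanocyte genes SOX10, FOXD3, MITF and PMEL had a summed level of 117 to 130 CPM in SOX9-tagged and 123 to 134 CPM in WT samples, of which SOX10, a master regulator of glia and melanocytes, had 1.24 and 1.42 CPM on average. PMEL, a melanosome protein, made up most of the sum in both genotypes. The part of such cells in the differences between the genotypes was not tested. The count of called REs of this list is left out.

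Imprinted genes had 4 lower REs of 182 (2.2%) and none higher, at GRB10, at GNAS and, with 2 REs, at MEG3, and all 4 were lower on depletion. The intronic RE of GRB10, an adaptor that limits insulin signalling, had 0.915, 0.824 and 0.942 CPM in the SOX9-tagged cells of R4, R5 and R8 and 2.12, 2.16 and 1.46 CPM in WT cells, with no overlap and a log2 difference of -1.08 ± 0.20 (SE), adjusted p = 0.0128. DESeq2 called 2 of the 182, and the GRB10 RE was called neither by DESeq2 nor without R5. In the TGF-β and BMP list 4 of 381 REs (1.05%) were lower, nearest to or within BMP4, BMP5, SMAD7 and TGFBR2, and 2 (0.525%) were higher, at BMPR1A and TGFBR1. The SMAD7 RE, in an intron of this inhibitory SMAD, had 4.83, 2.72 and 6.59 CPM in the SOX9-tagged cells of R4, R5 and R8 and 6.47, 5.37 and 10.6 CPM in WT cells, and differed by -0.68 ± 0.13 (SE), adjusted p = 0.0115, a call that was lost without R5. Of the 4 lower REs all were lower on depletion, and DESeq2 called 1 of the 381. 

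Neuroepithelial genes had 1 of 62 REs lower, assigned to SOX2, and 1 higher, 98.4 kb from SIX3. Zinc finger genes of chromosome 19 had 3 higher REs of 459 (0.654%), assigned to ZNF254, ZNF611 and ZNF726, and none lower, and the protocadherin clusters had 1 higher RE of 35. The protocadherin RE, in the gamma cluster, had 5.04, 5.46 and 9.31 CPM in the SOX9-tagged cells of R4, R5 and R8 and 3.83, 3.21 and 6.66 CPM in WT cells, and its log2 difference was 0.54 ± 0.13 (SE), adjusted p = 0.0414. It was not called by DESeq2, without R5 or without R8. DESeq2 called 1 of the 459 zinc finger and 1 of the 62 neuroepithelial REs. The RE nearest to SIX3 differed by 1.02 ± 0.17 (SE), adjusted p = 0.00516, and that nearest to ZNF726 by 1.06 ± 0.19 (SE), adjusted p = 0.00794. By edgeR none of 43 REs of pluripotency genes, 45 of neuron, 39 of mesoderm and muscle, 66 of HOX and 59 of AP-1 genes was called, although 7, 6, 7, 5 and 2 of them had unadjusted p-values under 0.05, and DESeq2 called none either. The median log2 difference of each list with a count lay between -0.09 (HOX genes) and 0.06 (mesoderm and muscle genes), beside 0.01 over all REs.

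Lower and higher REs differed in position and sequence. Of all REs 23.3% overlapped a promoter, of the lower REs 18% and of the higher REs 11.5%. The median distance to the start of a protein-coding gene was 31659 bases for lower, 36291 bases for higher and 18638 bases for all REs. A SOX core, AACAAT or ACAAAG on either strand, was held by 68% (95% Wilson interval 63.9 to 71.9%) of the lower REs of the standard width (a single extended summit), by 52.4% (95% Wilson interval 48.4 to 56.4%) of the higher REs and by 47.2% of all REs of this width. The share was 74.4% (95% Wilson interval 70 to 78.3%) in the 516 REs that were also lower on depletion, and 39.4% in the 129 lower REs not called on depletion, of which 31.8% overlapped a promoter. Over all REs of this width that were lower on depletion it was 61.9%, which lies below the interval of the 516. Over those that fell by more than 1 it was 73.2%, which lies within it. The AP-1 motif TGANTCA, which reads the same on both strands, was held by 23% (95% Wilson interval 19.8 to 26.5%) of the higher, 14.8% (95% Wilson interval 12 to 18.2%) of the lower and 15.5% of all REs. In the 281 REs that were higher in both comparisons it was 29.2% (95% Wilson interval 23.4 to 35.7%), beside 31.8% over all REs that were higher on depletion. The E-box CAGATG on either strand was held by 50.2% (95% Wilson interval 46.3 to 54.2%) of the higher, 44.3% (95% Wilson interval 40.1 to 48.6%) of the lower and 42.1% of all REs, and the AP-2 motif GCCNNNGGC by 19.5, 23.7 and 23.1%. Neighbouring cores facing each other with 3 to 5 bases between ACAAT or ACAAA and ATTGT or TTTGT were in 2.31% of the lower, 0.998% of the higher and 1.03% of all REs, and the gaps in the TFAP2B and GRB10 stretches are wider. Intervals cover counting error only, and a match is a description of the letters, not a binding site. The median level was 7.11 CPM for lower and 4.55 CPM for higher REs beside 2.74 CPM over all.

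Outside the 3 matched differentiations, the same REs could be read in 5 SOX9-tagged replicates at 0 nM (R6, R10, R13 and R14) and in the WT sample of RSh, a differentiation with no SOX9-tagged sample, so that genotype and differentiation cannot be told apart in these values. Over the 650 lower REs the median of SOX9-tagged minus WT was -0.31, in the same direction as in R4, R5 and R8, and 65.7% of them were below 0. Over the 789 higher REs it was -0.57, the opposite direction, and 79.3% were below 0, beside -0.02 over all REs. Over the 129 lower REs not called on depletion it was 0.06. Over all 15398 REs that were lower on depletion it was -0.30, and 72.7% were below 0. Over the 154 REs that were higher in SOX9-tagged cells of R4, R5 and R8 and lower on depletion it was -0.67, and 87.0% were below 0. The negative median is thus not particular to the 650 lower REs. In R6, where both clones were grown without dTAGV-1, S9CC13 minus S9CC47 had a median of 0.24 over the lower, -0.08 over the higher and 0.0016 over all REs, with 1 sample of each clone and no replicate check. At 13 of the 33 named REs the WT sample of RSh lay beyond all 7 SOX9-tagged samples of 48 h at 0 nM in the direction of the genotype difference, on the scale of all 58 samples, VILL among them with 2.97, 3.91 and 6.91 CPM as lowest, median and highest SOX9-tagged value and 13.8 CPM in WT. At 7 others it lay beyond all of them in the opposite direction, namely at ZNF469 and SLCO3A1, which were lower in SOX9-tagged cells of R4, R5 and R8, and at COL3A1, SYN3, ZNF726 and both HAPSTR1 REs, which were higher. COL3A1 had 3.23, 3.74 and 6.96 CPM as lowest, median and highest SOX9-tagged value and 8.55 CPM in WT, and ZNF469 had 1.5, 1.93 and 3.04 CPM and 1.15 CPM. R8, which is in the comparison, is among those 7 samples, and so is the 48 h sample of R5 that was left out of it.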

How the data were processed

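ATAC-seq libraries were aligned by the authors to hg38 with Bowtie2 2.4.1, duplicates, mitochondrial reads and low mapping quality were removed with SAMtools 1.10, and peak summits of MACS2 2.2.7.1 were clustered across differentiations, extended and merged. The deposited table holds raw counts per RE for 58 samples, not normalised, with 50.5 to 71.4 M counts in the 6 used. Annotation was from GENCODE 44. Starts were shifted to 1-based.

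Counts were tested over all REs with edgeR 4.0.16 (TMM, quasi-likelihood F test, Benjamini-Hochberg), with differentiation as covariate, on simulated data first. Alternatives were DESeq2 1.42.0, no covariate, other scalings, a filter at a mean of 20 counts, GC correction, thinning and leaving out each differentiation. The labels pair samples by differentiation, and same-numbered samples correlated at 0.63 (R4), 0.85 (R5) and 0.80 (R8) in their deviations from the group means. No samples of a group agreed within sampling noise.

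Differences per differentiation used log2(CPM + 0.1). Named REs had a mean of at least 50 counts and 1 sign in R4, R5 and R8: the 6 largest and smallest differences, 4 each at promoters (within 1000 bases) of protein-coding genes, the 3 lowest p-values each way, and, with no such limits, the lowest p-value of each gene list. Some genes of the glial and melanocyte list are not reported here. Members and lists were chosen with earlier results of these data known. Where a concentration label of R14 contradicted its title, the title was used.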

Additional observations from a re-analysis of the deposited data

Results flagged for a closer look

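The genotype difference with 500 nM dTAGV-1 differed from that without it, by the interaction in edgeR, for 19 named REs, all of them chosen on the untreated libraries that the interaction also uses. Where SOX9-tagged cells were lower without dTAGV-1, the interaction (log2, with minus without 500 nM) was -2.99 for CFAP20DC-DT, -1.88 for ENSG00000259035, -4.15 for MED4, -4.34 for MEGF10, -1.97 for ZNF469, -3.13 for DLC1, -2.60 for SH3BP4, -1.19 for SLCO3A1, -2.78 for PLCH1, -3.38 for VILL, -2.09 for ARHGEF10L, -2.80 for GRB10, -3.00 for TFAP2B and -1.36 for COL9A3, so that the gap between the genotypes was wider with 500 nM at all 14. Where SOX9-tagged cells were higher, it was -0.62 for EPHB1, -1.99 for MTRES1 and -1.15 for SLC22A8, and 0.53 for PERCC1 and 0.69 for SIX3.

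In the 7 SOX9-tagged samples at 48 h and 0 nM, the protocadherin gamma RE had 1 low value, 4.93 CPM, that stood apart from the others, beside a median of 8.46 CPM. Chance gives such a gap in about 1 in 20 groups, and 33 REs were looked at.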

How the results depend on the processing

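With no replicate block, 0 REs were called between untreated SOX9-tagged and WT cells, 4529 with 500 nM dTAGV-1, 11005 on depletion and 1780 for the interaction, and none of the 33 named REs stayed past the threshold, all with the same sign. DESeq2 called 662 REs, all of them among the 1439, and kept 27 of the 33 named REs, without MEGF10, CFAP20DC-DT, VPS13C, COL9A3, GRB10 and the protocadherin RE. Leaving out 1 differentiation gave 896 to 3891 REs without dTAGV-1 and 15870 to 24659 with 500 nM, and of the 1439 calls 1247 stayed without R4, 633 without R5 and 705 without R8, with the same sign. The cause was not tested. Size factors of the RLE method, library size only, the filter, GC correction and thinning gave 1442 to 1872 calls, of which at least 1338 were among the 1439. GC correction took COL9A3 and thinning the protocadherin RE from the named calls, and 6 named calls (PRMT8, VPS13C, SMAD7, COL9A3, GRB10, protocadherin) were lost without R5, 3 (VPS13C, HAPSTR1, protocadherin) without R8 and none without R4. With library size only the chromosome medians were 0.022 on chromosome 11 and 0.063 on chromosome 18, a shift common to all chromosomes. The motif shares, taken over REs of all widths, stayed within their intervals. The counts per gene list were taken again with DESeq2 alone, which called fewer REs in the cartilage, imprinted, TGF-β and BMP, zinc finger, protocadherin and neuroepithelial lists and in the SOX9 domain. The lowest called difference was 0.34 in size, which is not a detection limit, and REs that were not called with 3 pairs may differ by more.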
